A study of Rattus norvegicus with 24 samples.

Results

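Ccl2, Ccl3, Ccl4 and Ccl5 are 4 CC chemokine genes that were chosen by identifier (ENSRNOG00000007159, ENSRNOG00000011205, ENSRNOG00000011406 and ENSRNOG00000010906) out of the 32754 rat genes listed in each count file. Of these 4 genes, 3 passed the filter on low counts that left 12860 genes for testing, and Ccl5 did not. Chemokines are small secreted proteins that direct the migration of leukocytes, and the CC family is named for a pair of adjacent cysteines near the start of the mature protein. Ccl2 is the main ligand of Ccr2 and recruits monocytes, whereas Ccl3 and Ccl4 attract monocytes, T cells and NK cells. Ccl5 attracts T cells and monocytes and is known as a product of T cells and of cells responding to interferon. Microglia, the resident macrophages of the brain, are a known source of Ccl2, Ccl3 and Ccl4 after stimulation with bacterial products. In the gene order of RefSeq (assembly GRCr8), Ccl3 and Ccl4 are direct neighbours on chromosome 10, Ccl2 lies beside Ccl7, and Ccl5 lies between Heatr9 and Ccl9 on the same chromosome.

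RNA was sequenced from CD11b/c+ cells that were isolated magnetically from whole brain of Sprague-Dawley rats at postnatal day 9, after the olfactory bulbs and the cerebellum had been removed. The antibody binds microglia and also other myeloid cells, so the preparation is enriched for microglia but not restricted to them. Pups of both sexes stayed with their dams for 8 days in normoxia (Nx, room air at 21% O2) or in intermittent hypoxia (IH, 2 min cycles between 10.5% and 21% O2 for 8 h per day). At 16 h after the last exposure they received vehicle or lipopolysaccharide (LPS), a component of the bacterial cell wall that activates Toll-like receptor 4, and cells were collected 3 h later. The LPS dose was 0.1 mg/kg in the study's design text and 0.1 mg/mL in the sample labels, and the vehicle was HBSS in the methods and saline in the labels. The 8 groups were male Nx vehicle, male IH vehicle, male Nx LPS, male IH LPS, female Nx vehicle, female IH vehicle, female Nx LPS and female IH LPS, each with 3 biological replicates. Neither the labels nor the methods state whether a replicate was 1 pup or a pool, or which replicates shared a litter.

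The counts on genes summed to 6624453 to 8548714 per sample. All levels below are CPM, the reads of a gene scaled to a common library size, after correction by the trimmed mean of M values (TMM). One read was worth 0.118 to 0.151 CPM. Levels are not corrected for transcript length and are therefore compared between samples and not between genes. Some libraries stood apart in their response to LPS. Cxcl10, a chemokine induced by interferons, lay between 3.98 and 14.1 CPM in the 12 vehicle samples and between 440 and 3190 CPM in 10 of the 12 LPS samples. It reached 123 CPM in male Nx LPS replicate 2 and 23.1 CPM in male IH LPS replicate 3. Male Nx vehicle replicate 2 had the largest share of reads without a unique position, 23.4%, against 11.7% to 15.8% in the other libraries. The files carry no gene names, and none of the 10 markers of microglia fixed for a check of the cell type could be paired with an identifier, so that the labelled cell type was not checked. Of the mast cell markers, 1 of 4 could be paired. This gene, Mcpt1l1, ranged from 3.02 to 65.6 CPM with vehicle and from 2.07 to 50.2 CPM with LPS. It was higher in the 3 male IH LPS samples (50.2, 23.9 and 24.5 CPM) than in the 9 other male samples (3.02 to 15.3 CPM), among them male Nx LPS at 6.18, 12.7 and 12.6 CPM. This gene could be paired because the study called it higher with IH in LPS-treated males on these same samples. The pattern in males is therefore not independent evidence, and the share of all genes separated in this way was not counted. By edgeR neither the effect of LPS in IH males (log2 fold change 2.27, adjusted p = 0.293) nor that of IH after LPS in males (1.63, adjusted p = 1.00) passed the test. Its highest LPS value was in male IH LPS replicate 1, the library that was also highest for Ccl2 among the IH LPS samples. Its part in the results was not tested.

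With vehicle, Ccl2, Ccl3 and Ccl4 were detected in every sample, from 145 reads upwards. In Nx vehicle samples, Ccl2 measured 118, 95.9 and 45.8 CPM in males and 26.7, 41.0 and 42.7 CPM in females. Ccl3 measured 375, 362 and 190 CPM in males of this group and 96.1, 189 and 222 CPM in females. Ccl4 measured 175, 117 and 33.8 CPM in males and 20.7, 37.5 and 52.3 CPM in females. For each gene, male replicates 1 and 2 lay above all 3 females, and male replicate 3 lay near or within the female range. The 3 genes thus varied together among the vehicle samples, and Ccl4 varied most, by 10.5-fold between its lowest and highest vehicle sample against 4.47-fold for Ccl2 and 4.72-fold for Ccl3. In a bulk preparation, fewer cells of a type and less RNA per cell cannot be told apart.

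**Figure D1:**
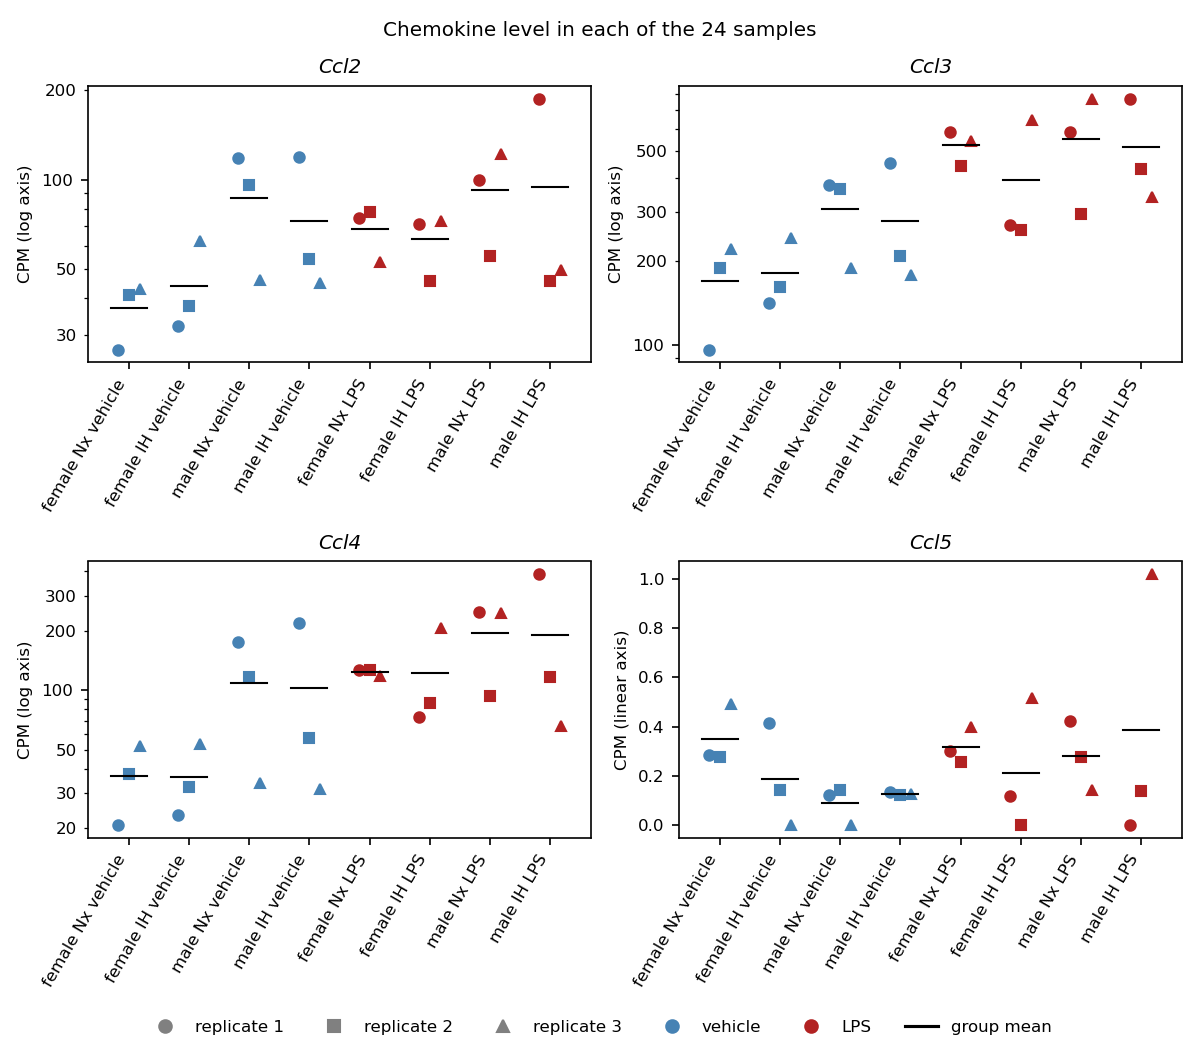
Level of each chemokine in the 24 samples, in CPM scaled by TMM, on a log axis for Ccl2, Ccl3 and Ccl4 and a linear axis for Ccl5. Points are samples, with a marker for each replicate number, and bars are means of 3 samples per group. Ccl3 and Ccl4 sit higher with LPS than with vehicle in females, male vehicle samples spread widely, and Ccl5 stays at or below 1.02 CPM.

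The first comparison asked how LPS changed the chemokines in microglia of pups kept in normoxia. Ccl3 rose 2.34-fold with LPS, and Ccl2 and Ccl4 did not pass the test. After LPS, Ccl3 measured 584, 296 and 766 CPM in Nx males and 585, 441 and 540 CPM in Nx females. All 6 samples lay above the median of the Nx vehicle samples and 5 of the 6 lay above every one of them, the exception being male replicate 2, the library with low Cxcl10. The log2 fold change of Ccl3 was 1.23 (SE 0.31, 95% interval 0.57 to 1.88), with an adjusted p of 0.0101 by the quasi-likelihood F test of edgeR with Benjamini-Hochberg adjustment over all 12860 genes. Thus 1 of the 3 tested chemokines was called higher, where 9.26% of all tested genes were called higher and 16.1% in either direction. The median log2 fold change of the 3 chemokines was 1.23, and that of all tested genes was -0.04.

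Ccl4 measured 247, 93.7 and 245 CPM in Nx males after LPS and 126, 126 and 118 CPM in Nx females. Every LPS sample was above the median of the Nx vehicle samples, but only 2 of 6 were above the highest vehicle sample, a male. The log2 fold change of Ccl4, 1.29, was as large as that of Ccl3, but its error was larger (SE 0.49, adjusted p = 0.0825 in edgeR). The call for Ccl4 depended on the fit: the adjusted p was 0.0393 when only the groups compared were fitted, 0.0423 with the likelihood ratio test, and 0.0483 without male Nx LPS replicate 2. Ccl2 measured 100, 55.2 and 122 CPM in Nx males after LPS and 74.5, 77.7 and 53.0 CPM in Nx females. The male values overlapped those of vehicle, with 1 of 3 above the highest, and the 3 female values lay above all 3 female vehicle values. In Nx females this held for Ccl2, Ccl3 and Ccl4, and for 13.1% of all tested genes. Over both sexes, the log2 fold change of Ccl2 was 0.49 (SE 0.34, 95% interval -0.22 to 1.20, adjusted p = 0.380 in edgeR).

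Other inflammatory genes whose identifiers could be paired with a name show the size of the response in these same libraries. Of a list of 17 other chemokines of the CXC, C and CX3C families, 3 could be paired, and all 3 were called higher after LPS in Nx, where 9.26% of all genes were. They could be paired because the study names them among NF-kB targets that it selected on these samples, so this count is not independent evidence of their direction. The log2 fold change of Cxcl10 was 8.42 (SE 0.87). Cxcl1, a neutrophil attractant, had 0 to 7 reads in the 6 Nx vehicle samples, 4 of them at or under 3 reads, and 12 to 294 reads in the 6 Nx LPS samples, so no fold change is given. Cxcl9, an attractant of T cells induced by interferon-gamma, had no read in the 6 Nx vehicle samples and 0.415 to 10.8 CPM in the 6 Nx LPS samples. Irf1, a transcription factor of the interferon response and the 1 paired gene of 25 in that list, rose by 2.75 on the log2 scale (SE 0.41). The intervals of Ccl3, 0.57 to 1.88, and of Cxcl10, 6.61 to 10.2, did not meet, although the difference itself was not tested. None of 16 other CC chemokines, 16 CC chemokine receptors or 33 genes of the LPS receptor and NF-kB pathway could be paired, and these were not analysed here.

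In pups kept in IH, the chemokines had effects of LPS of nearly the same size, but none of the 3 tested was called, where 7.16% of all genes were. Ccl3 and Ccl4, 2 of the 3, had an unadjusted p under 0.05 in edgeR, as had 19.4% of all genes, and DESeq2 called Ccl3. Ccl3 measured 770, 429 and 341 CPM in IH males after LPS, against 453, 209 and 178 CPM with vehicle. In IH females it measured 269, 258 and 645 CPM after LPS, against 142, 161 and 242 CPM with vehicle. All 6 IH LPS samples lay above the median of the IH vehicle samples, and 2 of the 6 lay above the highest, male IH vehicle replicate 1. The log2 fold change of Ccl3 was 0.99 (SE 0.31, 95% interval 0.34 to 1.64, adjusted p = 0.0603 in edgeR).

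Ccl4 measured 386, 116 and 65.8 CPM in IH males after LPS and 218, 57.4 and 31.5 CPM with vehicle. In IH females it measured 73.2, 86.2 and 205 CPM after LPS and 23.2, 32.3 and 53.2 CPM with vehicle. Replicate 1 was the highest male sample in both groups, and all 3 female LPS values lay above the female vehicle values, as they did for 10.7% of all tested genes. Over both sexes, the log2 fold change of Ccl4 was 1.32 (SE 0.49, adjusted p = 0.123 in edgeR). Ccl2 measured 188, 45.7 and 49.6 CPM in IH males after LPS and 120, 53.9 and 44.9 CPM with vehicle. In IH females it measured 71.0, 45.6 and 72.5 CPM after LPS and 32.1, 37.4 and 62.0 CPM with vehicle. The ranges of Ccl2 overlapped in both sexes, and its log2 fold change was 0.45 (SE 0.34, adjusted p = 0.550 in edgeR).

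The missed call for Ccl3 in IH was close to the threshold and turned on the fit and on single libraries. Its adjusted p was 0.0194 with DESeq2, 0.0233 with the likelihood ratio test of edgeR and 0.0469 with no filter on low counts. In edgeR it was 0.0207 without male IH vehicle replicate 1 (log2 fold change 1.27), 0.0317 without male IH LPS replicate 3 (1.10) and 0.0400 without female IH LPS replicate 2 (1.10). It was 0.0440 without male Nx LPS replicate 2 and 0.0491 without female Nx vehicle replicate 1, which are outside this comparison but share its fit. In the other direction, the adjusted p was 0.226 without female IH LPS replicate 3 (log2 fold change 0.71). Without male IH vehicle replicate 1, Ccl4 was also called (log2 fold change 1.92, adjusted p = 0.0223), whereas without male IH LPS replicate 1 its log2 fold change was 0.79. For Ccl2, leaving out male IH LPS replicate 1 brought the log2 fold change to -0.04.

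**Figure D2:**
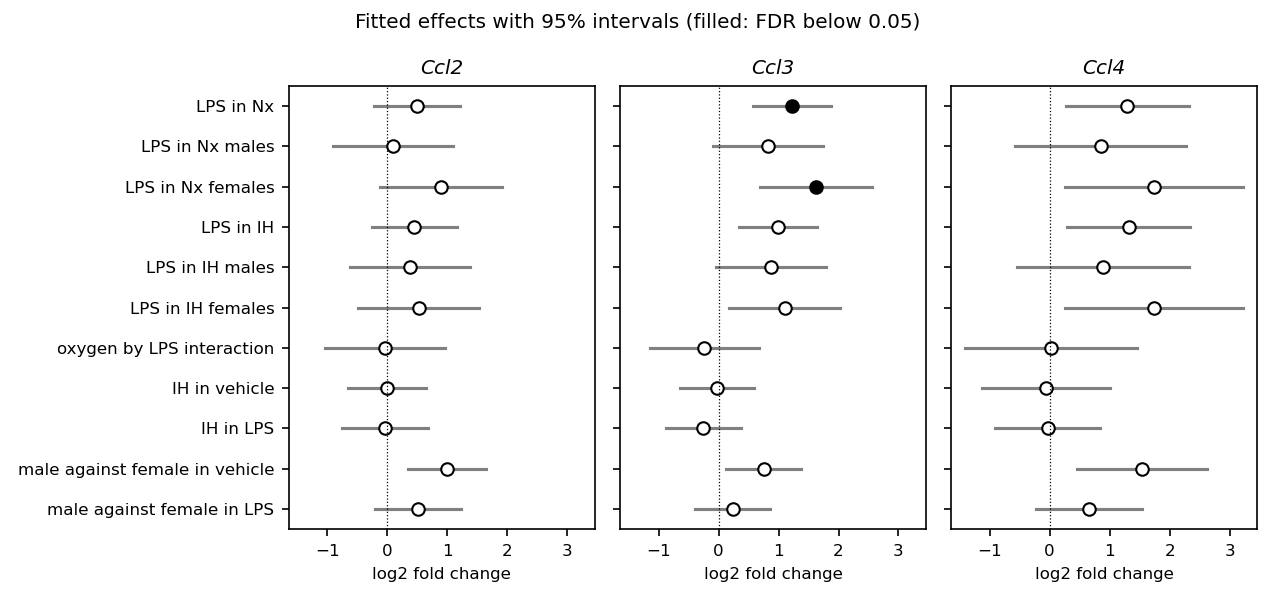
Log2 fold changes of Ccl2, Ccl3 and Ccl4 (x axis) in 11 comparisons (y axis), with 95% intervals from the edgeR fit. Filled points have an FDR below 0.05, which holds for Ccl3 with LPS in Nx (1.23) and with LPS in Nx females (1.63) among the comparisons drawn.

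The next comparisons asked whether IH changed the chemokines by itself or after LPS. With vehicle, the means of Ccl3 were 309 ± 104 CPM (SD, n = 3) in Nx males and 280 ± 151 CPM in IH males, and 169 ± 65.4 CPM in Nx females and 182 ± 52.9 CPM in IH females. For Ccl2 they were 86.6 ± 37.0 and 72.8 ± 40.8 CPM in males and 36.8 ± 8.76 and 43.8 ± 15.9 CPM in females, in the same order. Ccl4 averaged 109 ± 71.1 and 102 ± 101 CPM in males and 36.8 ± 15.8 and 36.2 ± 15.4 CPM in females. Within each sex the ranges of Nx and IH overlapped for all 3 genes. The fitted log2 change with IH was -0.00 for Ccl2 (95% interval -0.65 to 0.64), -0.03 for Ccl3 (-0.65 to 0.59) and -0.06 for Ccl4 (-1.12 to 1.00). The interval for Ccl4 thus admits changes of 1.00 up and 1.12 down on the log2 scale, and those for Ccl2 and Ccl3 admit 0.64 or 0.59 up and 0.65 down.

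By group means, Ccl2 and Ccl4 were lowest in the female vehicle groups and highest in the male LPS groups. Ccl3 and Ccl4 were higher in all 4 LPS groups than in all 4 vehicle groups, and Ccl2 was not. For each gene, every pair of groups next to each other in this order overlapped in range.

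After LPS, Ccl3 averaged 548 ± 237 CPM in Nx males and 513 ± 226 CPM in IH males, and 522 ± 73.5 CPM in Nx females and 391 ± 220 CPM in IH females. In females, 2 of the 3 IH samples, at 269 and 258 CPM, lay below the lowest Nx sample, at 441 CPM, and the other IH sample, at 645 CPM, lay above the highest. Ccl4 averaged 195 ± 88.1 and 189 ± 172 CPM in males and 123 ± 4.79 and 122 ± 72.8 CPM in females. The 3 female Nx LPS samples were the most alike of any group for Ccl4, within a factor of 1.07. Ccl2 averaged 92.5 ± 34.2 and 94.4 ± 81.0 CPM in males and 68.4 ± 13.4 and 63.1 ± 15.1 CPM in females. The log2 change with IH after LPS was -0.04 for Ccl2 (95% interval -0.76 to 0.68), -0.25 for Ccl3 (-0.88 to 0.37) and -0.03 for Ccl4 (-0.91 to 0.84). For Ccl3 it was -0.53 without female IH LPS replicate 3 and -0.10 without male Nx LPS replicate 3.

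By edgeR, 0 of the 3 tested chemokines and 0% of all tested genes were called for IH with vehicle or for IH after LPS, and no chemokine had an unadjusted p under 0.05. Over all genes, 136 with vehicle (1.06%) and 223 after LPS (1.73%) had an unadjusted p under 0.05, and DESeq2 and the likelihood ratio test called none. The same comparisons within each sex called 0 chemokines in males and 0 in females, with 0% of all genes called. None of the 3 chemokines had an unadjusted p under 0.05 in these. The share of all genes that did was 0.964% in males and 1.11% in females with vehicle, and 1.28% in males and 1.42% in females after LPS. DESeq2 and the likelihood ratio test called no chemokine in these, and of all genes DESeq2 called 4 and the likelihood ratio test 2 with vehicle in males, and the likelihood ratio test 1 after LPS in females. The difference between the effects of LPS in IH and in Nx was -0.04 for Ccl2 (95% interval -1.05 to 0.96), -0.24 for Ccl3 (-1.15 to 0.68) and 0.02 for Ccl4 (-1.41 to 1.46) on the log2 scale. This interaction called 0% of genes in edgeR, with 183 genes (1.42%) and no chemokine at an unadjusted p under 0.05, and 0 genes with DESeq2. The call for Ccl3 in Nx and the missed call in IH are therefore not shown to differ.

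The effects of LPS within each sex were less precise. In Nx females, Ccl3 rose by 1.63 on the log2 scale (SE 0.45, adjusted p = 0.0342 in edgeR), 1 of the 3 chemokines tested, where 6.43% of all genes were called and 4.49% were called higher. This call was lost without female Nx vehicle replicate 1 (adjusted p = 0.144), 2 (0.0596) or 3 (0.0614) and without female Nx LPS replicate 1 (0.0923) or 3 (0.0945). Ccl4 had a log2 fold change of 1.74 in Nx females (SE 0.71, adjusted p = 0.161), and the adjusted p was 0.0342 when only these 6 samples were fitted. For Ccl2 in Nx females, the value ran from 0.71 to 1.05 with a sample left out. Of the 3 chemokines, 2 had an unadjusted p under 0.05 by edgeR in Nx females, where 20.4% of all genes did. In Nx males the log2 fold changes were 0.10 for Ccl2, 0.83 for Ccl3 (SE 0.44, adjusted p = 0.381) and 0.85 for Ccl4 (SE 0.69), and none was called by edgeR, DESeq2 or the likelihood ratio test, where edgeR called 4.07% of all genes. None of the 3 had an unadjusted p under 0.05 in Nx males, where 16.1% of all genes did. With a sample left out, the effect in Nx males ran from 0.51 (without LPS replicate 3) to 1.13 (without LPS replicate 2) for Ccl3, and from 0.42 (without vehicle replicate 3) to 1.38 (without vehicle replicate 1) for Ccl4. The LPS effect on Ccl3 in Nx differed between males and females by -0.80, male minus female (SE 0.62, 95% interval -2.09 to 0.50), and did not pass the test (adjusted p = 0.9999 in edgeR). With a sample left out, this difference ran from -1.12 (without male Nx LPS replicate 3) to -0.50 (without male Nx LPS replicate 2). No gene was called for this difference, where 149 (1.16%) had an unadjusted p under 0.05, and no chemokine was called by DESeq2.

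In IH, Ccl4 had a log2 fold change of 1.74 in females (SE 0.71) and 0.89 in males (SE 0.69), and Ccl3 one of 1.11 in females (SE 0.44) and 0.88 in males (SE 0.44). With a sample left out, the effect on Ccl3 in IH females ran from 0.54 (without LPS replicate 3) to 1.37 (without vehicle replicate 3), and in IH males from 0.46 (without LPS replicate 1) to 1.42 (without vehicle replicate 1). That on Ccl4 ran from 1.13 to 2.13 in IH females without the same libraries, and from -0.17 to 2.09 in IH males. None was called by edgeR, DESeq2 or the likelihood ratio test, where edgeR called 3.23% of all genes in females and 0.855% in males. In females, 2 of the 3 chemokines had an unadjusted p under 0.05, where 14.5% of all genes did. In males none of the 3 did, where 8.98% of all genes did. Over both oxygen groups, the 6 female LPS samples did not overlap the 6 female vehicle samples for Ccl3, from 258 to 645 CPM against 96.1 to 242 CPM, or for Ccl4, from 73.2 to 205 CPM against 20.7 to 53.2 CPM. Over all tested genes, 5.1% had every female LPS sample above every female vehicle sample. In males the ranges overlapped for all 3 genes, and 2.81% of all tested genes were separated in this way. For Ccl4 they ran from 65.8 to 386 CPM with LPS and from 31.5 to 218 CPM with vehicle.

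The sexes were also compared directly, and their ranges overlapped for all 3 genes. With vehicle, the log2 difference of males from females was 0.99 for Ccl2 (SE 0.30), 0.76 for Ccl3 (SE 0.29) and 1.54 for Ccl4 (SE 0.50). Each had an unadjusted p under 0.05 (0.00580, 0.0216 and 0.00922) and an adjusted p of 0.377 in edgeR, so that 0 of 3 were called, where 0.07% of all genes were called and 13.3% had an unadjusted p under 0.05. DESeq2 and the likelihood ratio test called none of the 3. Without male IH vehicle replicate 1 the differences were 0.71, 0.48 and 0.93. After LPS the differences were 0.51, 0.24 and 0.65, with adjusted p between 0.611 and 0.791, and 0 of 3 were called, where 0.0467% of all genes were. Without male IH LPS replicate 1 they were 0.03, 0.04 and 0.14. In the other direction, the difference was 0.67 for Ccl2 without male IH LPS replicate 2. It was 0.52 for Ccl3 and 0.96 for Ccl4 without female IH LPS replicate 3. With all samples kept, no chemokine had an unadjusted p under 0.05 after LPS, where 9.43% of all genes did, and DESeq2 called none.

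The 3 chemokines varied together from sample to sample, so their reads were also compared within each sample, as reads of 1 gene per read of another. Such a ratio does not depend on library size or scaling. Because transcript lengths differ, its change between samples is informative but its size is not. The reads of Ccl3 per read of Ccl2 lay between 3.18 and 5.20 in the 12 vehicle samples, with a median of 3.93, and between 3.79 and 10.2 in the 12 LPS samples, with a median of 6.05. In males the vehicle values ran from 3.18 to 4.14 and the LPS values from 4.10 to 9.38, and they met only at male IH LPS replicate 1 (4.10). In females they overlapped more, from 3.59 to 5.20 with vehicle and from 3.79 to 10.2 with LPS, and female IH LPS replicate 1 (3.79) lay below 5 of the 6 female vehicle samples. The geometric mean rose from 4.03 to 6.37, a log2 difference of 0.66 (two-sided exact permutation p = 0.000188, adjusted p = 0.000844 over the 9 ratio comparisons made).

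Reads of Ccl4 per read of Ccl2 lay between 0.701 and 1.82 with vehicle and between 1.03 and 2.83 with LPS. The geometric mean rose from 0.986 to 1.88, a log2 difference of 0.93 (two-sided exact permutation p = 0.000112, adjusted p = 0.000844). Within males the differences were 0.69 for Ccl3 to Ccl2 (exact permutation p = 0.0050, the smallest that 400 labellings can give) and 0.83 for Ccl4 to Ccl2 (exact permutation p = 0.020). Within females they were 0.63 (exact permutation p = 0.030) and 1.03 (exact permutation p = 0.0050). Leaving out any single sample kept the first difference between 0.58 and 0.74 and the second between 0.85 and 1.03. The reads of Ccl3 and Ccl4 thus rose relative to those of Ccl2 after LPS in both sexes, although Ccl4 and Ccl2 were not called on their own. The ratios were chosen for testing after the values had been seen, and the permutation p-values do not allow for that choice.

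**Figure D3:**
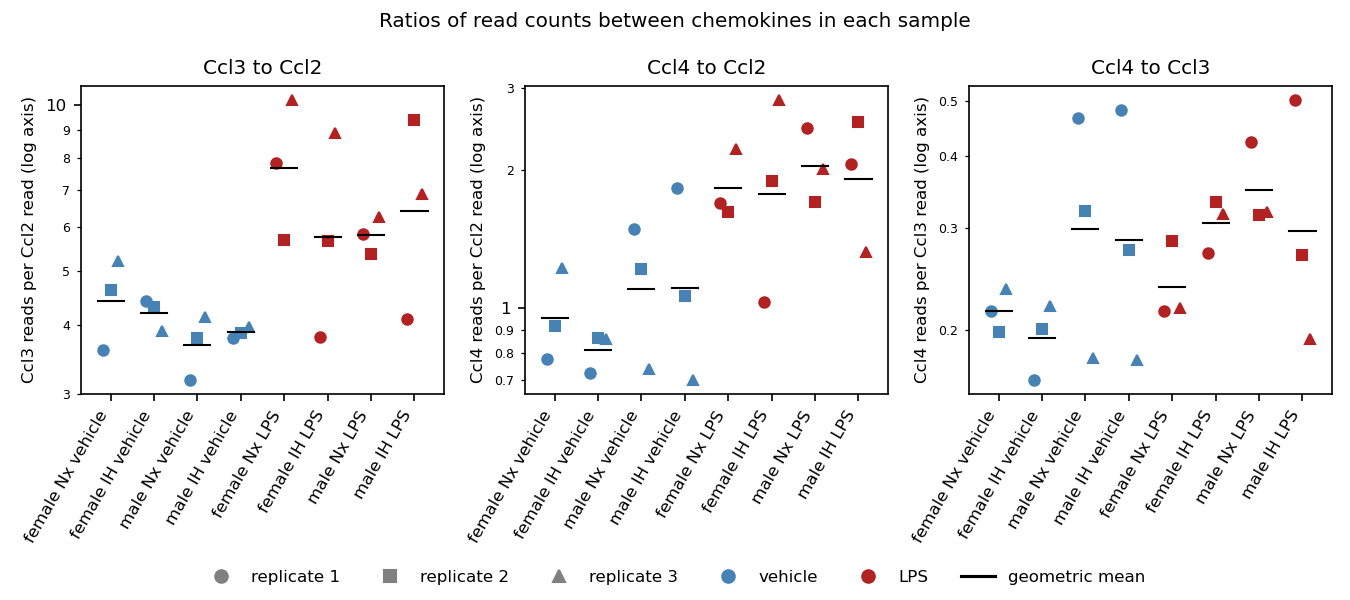
Reads of one chemokine per read of another in each of the 24 samples (y axis, log scale) by group (x axis), with bars for the geometric mean of 3 samples. Ccl3 to Ccl2 and Ccl4 to Ccl2 sit higher with LPS (geometric means 6.37 and 1.88) than with vehicle (4.03 and 0.986), and Ccl4 to Ccl3 is highest in replicate 1 of all 4 male groups.

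Ccl4 per read of Ccl3 had a geometric mean of 0.245 with vehicle and 0.295 with LPS, a log2 difference of 0.27 (exact permutation p = 0.152, adjusted p = 0.343). Leaving out any single sample kept this difference between 0.18 and 0.36. Within females the difference was 0.40 (exact permutation p = 0.025) and within males 0.14 (exact permutation p = 0.705), and with labels exchanged only between samples of the same replicate number the exact permutation p over all samples was 0.0430. In females it lay between 0.164 and 0.235 with vehicle and between 0.215 and 0.334 with LPS. In males this ratio spread over a wider range, from 0.177 to 0.501. Male replicate 1 had the highest value of its group in all 4 male groups, 0.467 in Nx vehicle, 0.481 in IH vehicle, 0.423 in Nx LPS and 0.501 in IH LPS. The other 8 male samples lay between 0.177 and 0.322. Neither the labels nor the methods say what the replicate numbers mark. The difference between the sexes in this ratio, 0.39 higher in males on the log2 scale, had an adjusted p of 0.141 (exact permutation p = 0.0469). None of the 3 ratios differed detectably between IH and Nx, with log2 differences of -0.07, -0.09 and -0.02 and adjusted exact permutation p between 0.730 and 0.897.

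The likeness of patterns was measured as the root mean square difference of centred log2 CPM over the 24 samples. Each chemokine was set against the 23 other tested genes that have a name here. Apart from the chemokines, these genes have a name because the study lists them as changed by IH in these samples. Within this selected set, the chemokines were nearest to each other. Ccl3 and Ccl4 differed by 0.461, Ccl2 and Ccl3 by 0.465, and Ccl2 and Ccl4 by 0.618, where their own standard deviations were 0.69 for Ccl2, 0.81 for Ccl3 and 1.17 for Ccl4. Among all 12859 other tested genes, Ccl3 was the 2nd nearest to Ccl4 and the 4th nearest to Ccl2, and Ccl4 was the 22nd nearest to Ccl3 but only the 844th nearest to Ccl2. For each of them the third named gene was Cd83, a surface protein of activated antigen-presenting cells, at 0.536 from Ccl3, 0.781 from Ccl2 and 0.854 from Ccl4. It was the 111th nearest of all genes to Ccl3 and the 100th to Ccl4, but the 6694th to Ccl2, from which it differed by more than the standard deviation of Ccl2 itself. The 24 points share their libraries and groups, and the distance is given as a description.

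Ccl3 and Cxcl10 are set side by side here for single libraries, which were chosen after their values were seen. Among the 12 LPS samples, the 8 with the most Ccl3, from 429 to 770 CPM, were also those with the most Cxcl10, from 1014 to 3190 CPM. The 4 with the least Ccl3, from 258 to 341 CPM, had 23.1 to 688 CPM of Cxcl10. Male IH LPS replicate 3, with the lowest Cxcl10 of the LPS samples, had 341 CPM of Ccl3, above all 6 female vehicle samples but below 3 of the 6 male ones (453, 375 and 362 CPM). Male Nx LPS replicate 2, at 123 CPM of Cxcl10, had 296 CPM of Ccl3, and female IH LPS replicate 2, at 440 CPM of Cxcl10, had 258 CPM of Ccl3. Male IH vehicle replicate 1 had 453 CPM of Ccl3 with 7.61 CPM of Cxcl10. Among the 12 vehicle samples Ccl3 ranged from 96.1 to 453 CPM, while Cxcl10 stayed at or below 14.1 CPM.

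**Figure D4:**
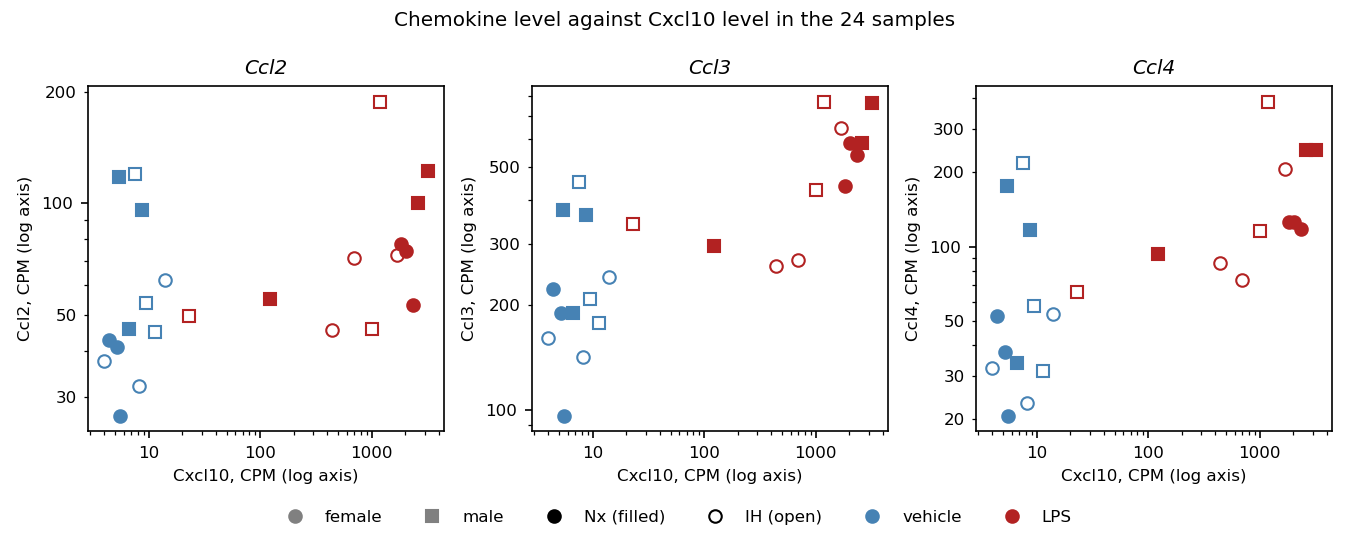
Level of Ccl2, Ccl3 or Ccl4 (y axis, CPM, log scale) against that of Cxcl10 (x axis, CPM, log scale) in the 24 samples, with colour for injection, shape for sex and fill for oxygen. Cxcl10 separates the vehicle samples (3.98 to 14.1 CPM) from the LPS samples (23.1 to 3190 CPM), whereas the chemokine levels of the 2 injections overlap.

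Ccl5 was near the limit of detection throughout. It had 44 reads over the 24 samples, 17 over the 12 vehicle samples and 27 over the 12 LPS samples, and between 0 and 8 reads in any sample. The reads were 1, 1 and 0 in male Nx vehicle, 3, 2 and 1 in male Nx LPS, 1, 1 and 1 in male IH vehicle, and 0, 1 and 8 in male IH LPS. In females they were 2, 2 and 4 in Nx vehicle, 2, 2 and 3 in Nx LPS, 3, 1 and 0 in IH vehicle, and 1, 0 and 4 in IH LPS. The 8 reads in male IH LPS replicate 3, 1.02 CPM, were the highest value, and this was the LPS library with the lowest Cxcl10. Most samples were at or under 3 reads, so no fold change is given. With no filter on low counts, 19677 genes entered the edgeR fit and Ccl5 had an adjusted p of 0.755 for LPS in Nx, 0.796 for LPS in IH and 1 for IH with vehicle and after LPS. A change of Ccl5 was thus not detected. A small change would not be detectable at this depth, because counting error alone is large at such values.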

How the data were processed

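Reads per Ensembl gene were deposited by the authors as raw counts, 1 file per sample, made from stranded mRNA libraries with TopHat2 2.1 on rn6 and HTSeq with the reverse strand option, as the methods and the submitters' processing notes state. HTSeq counts reads with a unique position only. Its summary rows were kept out of library sizes: reads outside genes were 14.7% to 21.2%, reads without a unique position 11.7% to 23.4% and ambiguous reads 0.265% to 0.435% of all reads tallied in a file. Reads per gene totalled 6624453 to 8548714 per sample (median 7532796.5).

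Genes above 1 CPM in at least 3 of 24 samples were kept (12860) and scaled by TMM in edgeR 4.0.16 (R 4.3.3). Contrasts were tested by the quasi-likelihood F test with Benjamini-Hochberg adjustment over all tested genes and an FDR of 0.05. LPS effects and their interactions were fitted to all 24 samples with 8 group means, and effects of IH and sex to the 12 vehicle or 12 LPS samples. Oxygen groups were compared over both sexes with equal weight. The vehicle samples are those whose labels name no LPS. The LPS, IH and sex comparisons share samples and are not independent.

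Ratios of reads were tested after the values had been seen, by two-sided exact permutation of the log2 ratios within groups of equal sex, oxygen or injection. Intervals are at 95%.

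The members and all gene lists were chosen with earlier results of these data known. Names rest on the rule for the 4 chemokines and, for other genes, on identifiers given with names in the study's text. Genes named are the members, up to 4 genes per list with the smallest p for LPS in Nx, and the 3 named genes most like each member, with log2 CPM at a prior count of 2. The genes paired in the lists were Cxcl1, Cxcl9, Cxcl10, Irf1 and Mcpt1l1. No marker of microglia (of 10), monocytes and border macrophages (of 8), neutrophils (of 8), T and NK cells (of 8), or of astrocytes, oligodendrocytes, neurons and endothelial cells (of 5 each) could be paired. Sequences of the 4 genes were not used here.

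Replicate numbers come from the labels. Deviations from group means of same-numbered samples correlated at 0.05 on average over 84 pairs, and at -0.03 over 168 pairs of other numbers, with 37 and 47 pairs over 0.1. All 3 same-numbered pairs were over 0.1 for male Nx vehicle with male Nx LPS (lowest 0.165) and in no other comparison of LPS or of oxygen within a sex. The same held for groups not compared directly here, male Nx LPS with female Nx vehicle (lowest 0.193) and female Nx LPS with female IH vehicle (lowest 0.143). The check therefore does not show that the numbers mark pairs. The main fits used no block, and a block fitted to all samples changed no call of a chemokine. No 2 samples of a group held the same library (lowest chi-square per degree of freedom 7.65). No batch or date is given by the sources used here. Alternatives were DESeq2 1.42.0, the likelihood ratio test, RLE size factors, no filter, other samples in the fit, a block for the replicate number, and fits without each sample in turn.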

Additional observations from a re-analysis of the deposited data

Results flagged for a closer look

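In the groups of 6 samples of equal oxygen and injection, 16 sets of 6 values (4 genes) were examined for a highest or lowest sample far from the others, and 5 were found on the CPM scale. For normally distributed values chance gives about 1 in 20, and the genes share libraries and vary together. On the log2 CPM scale, added after the values were seen, only 1 of the 5 remained, Ccl2 in male IH LPS replicate 1 (gap to the next sample over the range of the 6 samples, 0.673), and this share was 0.501 to 0.597 for the other 4. Male IH vehicle replicate 1 stood far above the other 5 IH vehicle samples for Ccl2 (120 CPM), Ccl3 (453 CPM) and Ccl4 (218 CPM). Its Cxcl10, 7.61 CPM, was within the range of the vehicle samples. Without this library the log2 effect of LPS in IH was 1.27 for Ccl3 and 1.92 for Ccl4, and both were called (adjusted p = 0.0207 and 0.0223 in edgeR). Male IH LPS replicate 1 stood far above the other 5 IH LPS samples for Ccl2 (188 CPM). It also had the highest Mcpt1l1, a mast cell gene, of the LPS samples (50.2 CPM). Without it the log2 effect of LPS in IH on Ccl2 was -0.04 (adjusted p = 0.966 in edgeR). Ccl5 was highest among the IH vehicle samples in female replicate 1 at 0.417 CPM, which is 3 reads. What sets these libraries apart was not tested.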

How the results depend on the processing

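The call of Ccl3 for LPS in Nx held under the 6 other settings (adjusted p 0.00102 to 0.0153) and without each of the 24 samples in turn (log2 fold change 1.07 to 1.38, adjusted p 0.00357 to 0.0376). The number of chemokines called for LPS in Nx was 2 in place of 1 with the likelihood ratio test and with a fit to only the groups compared, and 1 to 2 with a sample left out. For LPS in IH it was 1 in place of 0 with DESeq2, with the likelihood ratio test and with no filter, and 0 to 2 with a sample left out. For LPS in Nx females it was 2 in place of 1 with a fit to only the groups compared, and 0 to 1 with a sample left out. In the other comparisons the count stayed at 0 under each setting run. With the replicate number as a block, the counts stayed at 1 for LPS in Nx, 0 for LPS in IH and 1 for LPS in Nx females, and no other call changed; the blocked effect of LPS on Ccl3 was 1.17 in Nx (adjusted p = 0.0153) and 0.98 in IH (adjusted p = 0.0646). In the ratio tests, exchanging labels only between samples of the same replicate number (added after the values were seen) gave exact permutation p = 0.00146 for Ccl3 to Ccl2 and 0.000488, the smallest possible, for Ccl4 to Ccl2 with LPS. It brought the unadjusted p of Ccl4 to Ccl3 to 0.0430 with LPS and 0.0874 between the sexes.

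Some values changed sign, and the cause was not tested. Without male IH LPS replicate 1, the effect of LPS on Ccl2 in IH went from 0.45 to -0.044, that on Ccl2 in IH males from 0.38 to -0.61, and that on Ccl4 in IH males from 0.89 to -0.17. The effect of IH with vehicle on Ccl2 was 0.0013 with a fit to all 24 samples, and the oxygen by LPS interaction of Ccl2 was 0.050 with the sexes fitted as 1 group. The difference of IH from Nx in the log2 ratio of Ccl3 to Ccl2 was 0.11 in males only and 0.00050 in vehicle samples only, and in that of Ccl4 to Ccl3 it was 0.11 in females only and 0.065 in LPS samples only. With a sample left out, the effect of IH with vehicle ran from -0.29 to 0.14 for Ccl2, from -0.30 to 0.10 for Ccl3 and from -0.67 to 0.20 for Ccl4. The effect of IH after LPS ran from -0.52 to 0.12 for Ccl2, from -0.53 to -0.10 for Ccl3 and from -0.55 to 0.17 for Ccl4. The interaction ran from -0.54 to 0.25 for Ccl2, from -0.52 to 0.044 for Ccl3 and from -0.51 to 0.63 for Ccl4. The effect of LPS on Ccl2 ran from -0.044 to 0.74 in IH, from -0.61 to 0.94 in IH males and from -0.21 to 0.39 in Nx males, and that on Ccl4 in IH males from -0.17 to 2.09. The IH differences in the ratios ran from -0.15 to 0.013 for Ccl3 to Ccl2, from -0.18 to 0.0060 for Ccl4 to Ccl2 and from -0.12 to 0.063 for Ccl4 to Ccl3. A change of Ccl5, at 0 to 8 reads per sample, was not detected, and a small one would not be detectable at this depth.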
